A study of Sus scrofa with 23 samples.

Results

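Solute carriers are the membrane proteins, numbered in families as SLC genes, that move amino acids, ions, sugars, nucleosides and other small molecules across the plasma membrane and the membranes of organelles. On the Affymetrix Porcine Genome Array, 172 probe sets carry exactly 1 gene symbol that begins with SLC and a digit, out of 23999 probe sets that are not controls, after SLC2A1, SLC2A3, SLC2A5 and SLC5A1 were set aside. They stand for 116 of the 6765 genes that the array names in this way. After probe sets with a mean log2 value under 5.3 were left out, 128 of the 172 probe sets and 93 of the 116 genes remained, against 16799 probe sets and 5905 genes over the whole array. Where a gene had several probe sets, the one with the highest mean is given, and the genes were grouped by what their family carries.

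The samples were articular cartilage of pigs from a cross of Duroc and Pietrain, and the study set pigs with osteochondrosis, a disorder of growing joints in which the change of cartilage into bone is locally disturbed, against non-affected sibs. There were 4 samples of affected femur, 4 of non-affected femur, 7 of affected humerus and 6 of non-affected humerus, all from the medial condyle of the bone named, so the joints are the knee and the elbow. These 21 samples came from 23 arrays, because 2 pairs of arrays of 1 group were nearly identical and were averaged. The labels give no treatment, age, genotype or grade of lesion, and do not say which pigs were sibs. They also leave it unsaid whether each array holds a different pig, so the p-values cover the spread between arrays, which may be technical.

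Articular cartilage has few or no blood vessels, apart from the cartilage canals of its deeper part in growing animals, and its cells, the chondrocytes, take up nutrients that diffuse in from the joint fluid and from below. Chondrocytes live on glycolysis and export lactate, import amino acids for collagen, and import sulfate and load sugar nucleotides into the Golgi to build aggrecan and other sulfated proteoglycans. The SLC25 family lies in the inner membrane of mitochondria, with some members elsewhere, and exchanges nucleotides, phosphate and metabolites with the cytosol.

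Values are log2 as deposited, with a floor at 4, and 2 of the 128 probe sets had any sample at the floor. The mean of 7 chondrocyte markers ran from 10.81 to 12.47 over the 21 samples. The 2 steadiest were COMP, a cartilage matrix protein, between 13.38 and 13.98, and ACAN, the aggrecan core protein, between 13.07 and 14.02. The lowest values of the other markers lay between 7.40 for SOX9 and 10.51 for COL2A1, and CILP ran from 8.96 to 13.72. The 2 joints differed in more than tissue: bacterial control transcripts, which are added at hybridisation, averaged 11.56 ± 0.08 on the 9 femoral arrays and 10.41 ± 0.09 on the 14 humeral arrays (SD), without overlap. Site and the handling of the arrays therefore cannot be told apart, and this touches each femur to humerus value below. One humeral sample, humerus non-affected 5, stood with the femoral ones: on the first principal component of the tested probe sets it scored 29.0, within the femoral range of 26.9 to 58.4, while the other humeral samples scored -53.2 to -0.80. Its mean marker levels for macrophages (5.63), bone (6.87), endothelium (5.65) and osteoclasts (6.85) were the lowest of the humeral samples. Without it the calls among the 93 solute carriers numbered 1 in the femur and 0 in the humerus, over both joints and in the joint by status test. Between the joints they numbered 48 (46 of them shared with the 47 of all samples). The shares of all genes called were then 1.42% in the femur, 0% in the humerus and over both joints, 0.152% in the joint by status test and 53.2% between the joints. Values that moved by more than 1.5 times are given where they occur. Comparisons of affected with non-affected samples were made within a joint or with the joint in the model. Where markers of another cell type move with a carrier, fewer cells of that type and less RNA per cell cannot be told apart in bulk tissue.

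Within the femur, 1 solute carrier passed the test. SLC22A5, the sodium-dependent carnitine transporter of the plasma membrane, which feeds the mitochondrial oxidation of fatty acids, read 5.10, 5.35, 5.77 and 5.81 in affected femur, against 6.27, 6.42, 6.78 and 6.83 in non-affected femur. All affected samples lay below all non-affected ones. It fell by 1.07 ± 0.21 on the log2 scale (SE, a ratio of 0.477, 95% interval -1.51 to -0.63, limma adjusted p = 0.0191). Among solute carriers 1 of 93 was called, beside 1.03% of all genes (0.898% called lower), so the count of solute carriers is near that of the array. The call was lost without femur affected 2 (adjusted p = 0.0612), femur affected 3 (0.0853) or femur non-affected 4 (0.0569), and with the femoral arrays fitted alone (0.155), while the difference kept its sign. In the humerus the same gene had a lowest, median and highest value of 5.98, 6.32 and 6.68 in affected samples, against 5.82, 6.18 and 6.89 in non-affected samples, and these overlapped almost fully (difference 0.07, 95% interval -0.28 to 0.42).

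**Figure D1:**
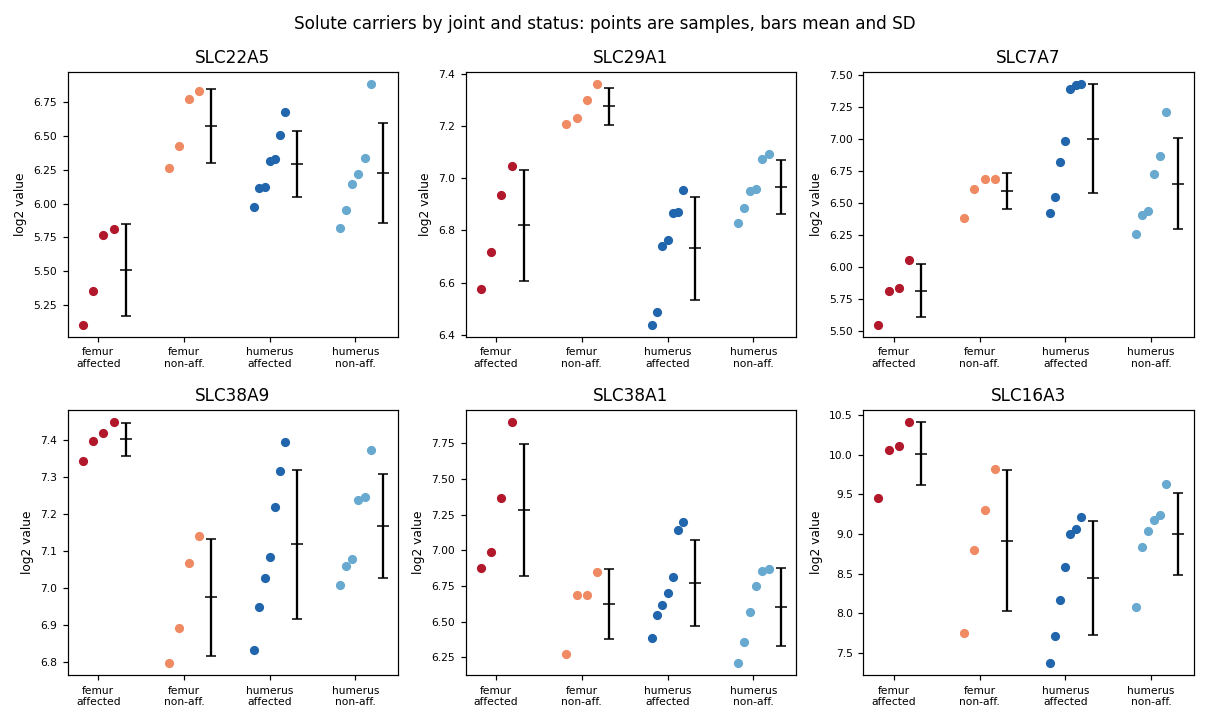
Log2 values of 6 solute carriers in affected and non-affected cartilage of femur and humerus. Each point is a sample, sorted by value within its group, and the bars give the mean and SD. SLC22A5 in affected femur (5.10 to 5.81) lies below non-affected femur (6.27 to 6.83), while the humeral groups overlap.

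Macrophage markers moved with SLC22A5 in the femur. All 7 measured macrophage genes were lower in affected femur, with a median difference of -2.01 and 0 called but 7 with an unadjusted p under 0.05, and their mean level ran from 4.62 to 6.44 in affected femur, against 6.23 to 8.22 in non-affected femur. AIF1 was at the floor in 2 of the 21 samples, and FCER1G and TYROBP in 1 each. All 7 chondrocyte markers ran the other way, with a median of 0.29 and a mean level of 11.99 to 12.47 in affected femur, against 11.36 to 11.94 in non-affected femur. All 6 endothelial markers read lower as well (median -0.86), and the mean of the 7 such genes on the array ran from 4.83 to 6.66 in affected femur, against 4.79 to 6.96 in non-affected femur. The part of these cells in the carrier differences of the femur was not tested.

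Over the femur as a whole, 38 of the 93 solute carriers read higher and 55 lower in affected samples, with a median of -0.06, the same as the median over all 5905 genes. Of all genes 41.7% read higher, which stands beside each class count below. The groups did not overlap for 12 of the 93 (3 above, 9 below), or 12.9%, beside 8.81% of all genes, and 22 of 93 (23.7%) had an unadjusted p under 0.05, beside 19.7% of all genes. The genes of each class are given in turn, with their differences as affected minus non-affected femur, and apart from SLC22A5 none passed the test.

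Among the amino acid carriers, 8 of the 11 tested genes read higher in affected femur, with a median of 0.15. SLC38A9, the lysosomal carrier through which arginine is sensed by mTORC1, read 7.34, 7.40, 7.42 and 7.45 in affected femur, against 6.80, 6.89, 7.07 and 7.14 in non-affected femur. The groups did not overlap (0.43, adjusted p = 0.0878). SLC38A1, a sodium-coupled carrier of glutamine and other neutral amino acids, had 6.87, 6.99, 7.37 and 7.90 in affected femur, against 6.28, 6.68, 6.69 and 6.85 in non-affected femur. Its groups touched without overlapping (0.66, adjusted p = 0.121). SLC7A7, the light chain of an exchanger of cationic for neutral amino acids and a gene expressed in macrophages, stood on the other side, with 5.55, 5.82, 5.84 and 6.06 in affected femur, against 6.39, 6.61, 6.69 and 6.69 in non-affected femur. Again no sample crossed over (-0.78, adjusted p = 0.0878).

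The other amino acid carriers had smaller or less even differences. SLC7A1, the main importer of arginine and lysine, had 10.19 to 11.10 in affected femur, against 9.72 to 10.46 in non-affected femur, a difference of 0.62 with overlapping groups. SLC1A5, a glutamine carrier, differed by 0.30, SLC1A4, a carrier of alanine, serine and cysteine, by 0.44, and SLC3A2, the heavy chain that takes several SLC7 light chains to the surface, by 0.05. SLC38A10 read 9.22 to 9.41 in affected femur, against 9.39 to 9.67 in non-affected femur (-0.24).

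Of the 2 nucleoside carriers, SLC29A1, the equilibrative transporter that lets adenosine and other nucleosides cross the plasma membrane both ways, had the second smallest p in the femur among all 93. It read 6.58, 6.72, 6.94 and 7.05 in affected femur, against 7.21, 7.23, 7.30 and 7.36 in non-affected femur. The 4 affected samples lay below the narrow range of the non-affected ones (-0.46 ± 0.13 SE, adjusted p = 0.0757). SLC28A1, a sodium-driven carrier of pyrimidine nucleosides, read 5.49 to 6.24 in affected femur, against 5.36 to 5.82 in non-affected femur (0.19), and SLC28A3 was too dim to be tested.

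Ion carriers were split, with 8 of 21 higher in affected femur and a median of -0.02. SLC30A5, which moves zinc into the Golgi, had 6.24, 6.52, 7.17 and 7.43 in affected femur, against 5.53, 5.70, 6.35 and 6.50 in non-affected femur, and only the lowest affected sample fell within the non-affected range (0.82, adjusted p = 0.168). A second probe set of SLC30A5 gave 0.85. SLC9A3, a sodium-proton exchanger, had 6.58 to 7.26 in affected femur, against 7.02 to 8.07 in non-affected femur (-0.53). SLC39A1, a zinc importer, differed by -0.29, the sulfate and anion carrier SLC26A11 by -0.39, the potassium-chloride cotransporter SLC12A4 by 0.20 and the zinc channel of the endoplasmic reticulum SLC39A7 by -0.02.

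Mitochondrial carriers of the SLC25 family were lower in 13 of 19 cases in affected femur, with a median of -0.14, and most differences were small. SLC25A21, a carrier of oxodicarboxylates, had 6.33, 6.48, 6.71 and 7.50 in affected femur, against 5.67, 5.84, 5.85 and 7.02 in non-affected femur. One non-affected sample, the mean of the pair 1 and 2, reached into the affected range (0.66, adjusted p = 0.169). SLC25A24, an exchanger of ATP-magnesium for phosphate, differed by 0.64 and the phosphate carrier SLC25A3 by -0.14. The ADP/ATP exchangers SLC25A5 and SLC25A6 differed by -0.14 and -0.05.

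The nucleotide sugar family was lower in 7 of 10 cases in affected femur (median -0.17), with its largest difference upward. SLC35A3, which brings UDP-N-acetylglucosamine into the Golgi and whose loss in cattle causes a vertebral malformation, read 4.50, 5.20, 5.38 and 6.14 in affected femur, against 4.08, 4.37, 4.51 and 4.73 in non-affected femur (0.88, adjusted p = 0.129). Only the lowest affected sample fell within the non-affected range. All non-affected values lay near the floor of 4 and under the filter value of 5.3, so the size of this difference is uncertain. SLC35A4 had 6.45, 6.45, 6.49 and 6.55 in affected femur, against 6.87, 7.01, 7.10 and 7.24 in non-affected femur, without overlap (-0.57, adjusted p = 0.0985). A second tested probe set of SLC35A4 had the opposite sign (0.14). The GDP-fucose carrier SLC35C1 differed by -0.72, SLC35B1 of the endoplasmic reticulum by -0.33 and SLC35B2, which brings the sulfate donor PAPS into the Golgi, by 0.06.

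In the smaller classes, SLC16A3, the lactate exporter of glycolytic cells, had 9.46, 10.06, 10.11 and 10.41 in affected femur, against 7.75, 8.79, 9.30 and 9.82 in non-affected femur. Only the lowest affected sample lay below the highest non-affected one (1.09, 95% interval 0.20 to 1.98, adjusted p = 0.169). The other carboxylate carrier tested, SLC16A13, differed by -0.03. SLC6A4, the serotonin transporter, had 7.48 to 9.13 in affected femur, against 8.78 to 9.28 in non-affected femur (-0.89), while the creatine carrier SLC6A8 differed by 0.18 and SLC44A2, a choline transporter-like protein, by 0.26. The facilitative glucose transporter SLC2A12 read 6.98 to 7.37 in affected femur, against 7.57 to 8.23 in non-affected femur, without overlap (-0.69, adjusted p = 0.160). SLC46A3, a lysosomal membrane protein, read 5.92 to 6.22 in affected femur, against 5.68 to 5.78 in non-affected femur (0.32), also without overlap.

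The class of regulators holds 3 symbols of the SLC form that name proteins other than carriers, and all 3 read lower in affected femur. SLC2A4RG, a DNA-binding regulator of the glucose transporter GLUT4, had 7.14, 7.19, 7.26 and 7.53 in affected femur, against 7.54, 8.07, 8.32 and 8.36 in non-affected femur. The groups did not overlap, by a margin of the second decimal (-0.79, adjusted p = 0.0894). The scaffold SLC9A3R2 had 4.68, 6.37, 6.52 and 7.90 in affected femur, against 7.11, 7.25, 7.28 and 8.73 in non-affected femur (-1.22, adjusted p = 0.198), with the widest within-group spread of the 93 genes (pooled SD 0.795). Its relative SLC9A3R1 differed by -0.32.

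**Figure D2:**
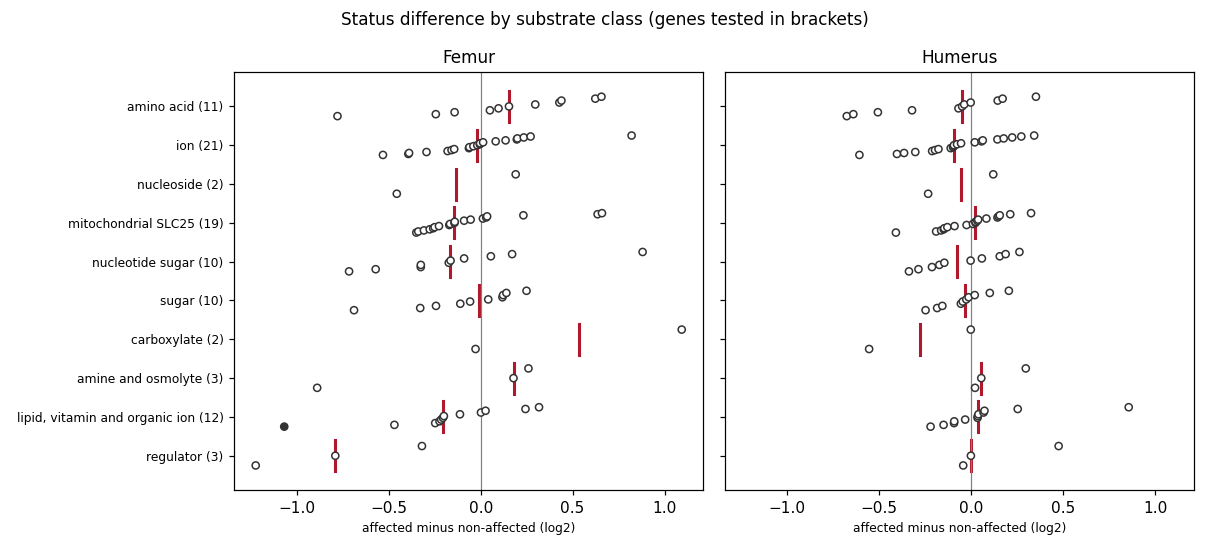
Differences of the 93 tested solute carrier genes between affected and non-affected cartilage in log2 units, by substrate class, for femur (left) and humerus (right). Each point is a gene, filled where limma's adjusted p was under 0.05, and the red bar is the class median. The filled point in the femur is SLC22A5 at -1.07, and the humerus has none.

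Within the humerus, the call count was 0 of 93, as it was for all 5905 genes (0%) by limma, and 8 of 93 (8.60%) had an unadjusted p under 0.05, beside 6.49% of all genes. Without humerus non-affected 5 these shares were 8.60% and 3.78%. No solute carrier separated the groups, beside 0.271% of all genes, and without that sample 1 did, SLC9A5 (1.08%, beside 0.423% of all genes). In this joint 41 solute carriers read higher and 52 lower in affected samples (median -0.02), with 3 of 11 amino acid carriers, 8 of 21 ion carriers and 11 of 19 SLC25 genes on the higher side. Of all genes 48.4% read higher in affected humerus. The smallest p-values belonged to genes of several classes. SLC1A5 had a lowest, median and highest value of 9.61, 10.11 and 10.47 in affected humerus, against 10.23, 10.47 and 11.19 in non-affected humerus (-0.51 ± 0.16 SE, adjusted p = 0.641). All 7 affected samples lay below the non-affected mean, with overlap at the edges.

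SLC9A5, a sodium-proton exchanger, ran the other way, with 8.81, 8.95 and 9.29 in affected humerus, against 8.50, 8.72 and 8.88 in non-affected humerus (0.34, adjusted p = 0.641). A second tested probe set of SLC9A5 gave 0.06. SLC27A6, a fatty acid transport protein, had 6.35, 7.27 and 7.62 in affected humerus, against 4.83, 6.29 and 7.36 in non-affected humerus (0.86, adjusted p = 0.687). Its 3 tested probe sets ran from 0.02 to 0.86 in this comparison, and another of them lies at the opposite sign between the joints. SLC9A3 had 5.95, 7.16 and 7.65 in affected humerus, against 7.39, 7.64 and 7.98 in non-affected humerus, and SLC7A1 had 9.18, 10.13 and 10.73 in affected humerus, against 9.97, 10.69 and 10.98 in non-affected humerus. For SLC9A3, 5 of 7 affected samples lay below every non-affected one (-0.61, adjusted p = 0.728), and for SLC7A1 3 of 7 did (-0.64, adjusted p = 0.754). The pyrimidine nucleotide carrier SLC25A33 differed by -0.41, and by -0.18 without humerus non-affected 5, which read 9.03 with the next non-affected sample at 7.76. SLC39A1 differed by 0.22.

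Markers of blood-derived cells overlapped between the humeral groups. All 7 macrophage markers had a higher mean in affected humerus (median 0.85, and 0.36 without humerus non-affected 5), and 0 had an unadjusted p under 0.05. Their mean level had a lowest, median and highest value of 7.18, 8.48 and 9.71 in affected humerus, against 5.63, 8.38 and 9.08 in non-affected humerus. All 6 neutrophil markers also had a higher mean in affected humerus (median 1.89, and 1.53 without that sample), with 1 at an unadjusted p under 0.05, or 0 without it. Their mean level was 5.17, 8.98 and 10.76 in affected humerus, against 4.66, 5.51 and 11.50 in non-affected humerus, so the highest neutrophil level was that of a non-affected sample. All 7 chondrocyte markers read lower in affected humerus (median -0.17), with means of 10.81 to 12.02 in affected humerus, against 11.74 to 12.27 in non-affected humerus. Their part in the carrier values was not tested.

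With both joints in 1 model, limma called 0 of 93 solute carriers and 0 of all genes (0%), with 11 of 93 (11.8%) at an unadjusted p under 0.05, beside 5.93% of all genes. SLC29A1 had the smallest p of the family. In the humerus its lowest, median and highest values were 6.44, 6.76 and 6.95 in affected samples, against 6.83, 6.96 and 7.09 in non-affected samples, so the humeral groups overlapped while the femoral ones did not. Over both joints it differed by -0.32 ± 0.08 (SE, 95% interval -0.49 to -0.15, adjusted p = 0.587), and 11 of 11 affected samples lay below the non-affected mean of their joint. SLC9A3 differed by -0.58 ± 0.18 (adjusted p = 0.618), with 10 of 11 affected samples below. Further genes with small p-values were SLC25A21 at 0.45, SLC38A1 at 0.36, SLC45A2 at 0.22, SLC35B1 at -0.21, SLC2A12 at -0.38 and SLC25A17, a peroxisomal member of the SLC25 family, at -0.22. Of 10 nucleotide sugar genes, 9 had a negative sign, with a median of -0.07, beside 3539 of all 5905 genes and their median of -0.03.

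The status difference was of opposite sign in the 2 joints for 51 of 93 solute carriers (54.8%), beside 60.4% of all genes. By class it was opposite for 7 of 11 amino acid carriers, 10 of 21 ion carriers and 13 of 19 SLC25 genes, and for none of the 2 nucleoside carriers. Among the amino acid carriers, 6 read higher in affected femur and lower in affected humerus, and the median of the femoral minus the humeral difference was 0.48 for that class, beside -0.05 over all genes. The test of that difference called 0 of 93 genes, beside 0.339% of all genes (0.152% without humerus non-affected 5), with 21 of 93 (22.6%) at an unadjusted p under 0.05, beside 20.2% of all. The smallest p-values belonged to SLC22A5 at -1.14 (adjusted p = 0.0766), SLC7A7 at -1.13 (0.0954), SLC35A4 at -0.76 (0.120), SLC6A4 at -1.19 (0.129) and SLC35A3 at 1.22 (0.139). SLC7A1 followed at 1.26 (0.145), SLC46A3 at 0.47 (0.145), SLC16A3 at 1.65 (0.151), SLC1A5 at 0.80 (0.151), SLC35C1 at -0.98 (0.151) and SLC38A9 at 0.48 (0.154). The second probe set of SLC35A4 gave 0.10 here. For SLC16A3 the humeral values were 7.37, 8.58 and 9.21 in affected samples, against 8.08, 9.10 and 9.62 in non-affected samples, the reverse of the femoral order.

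**Figure D3:**
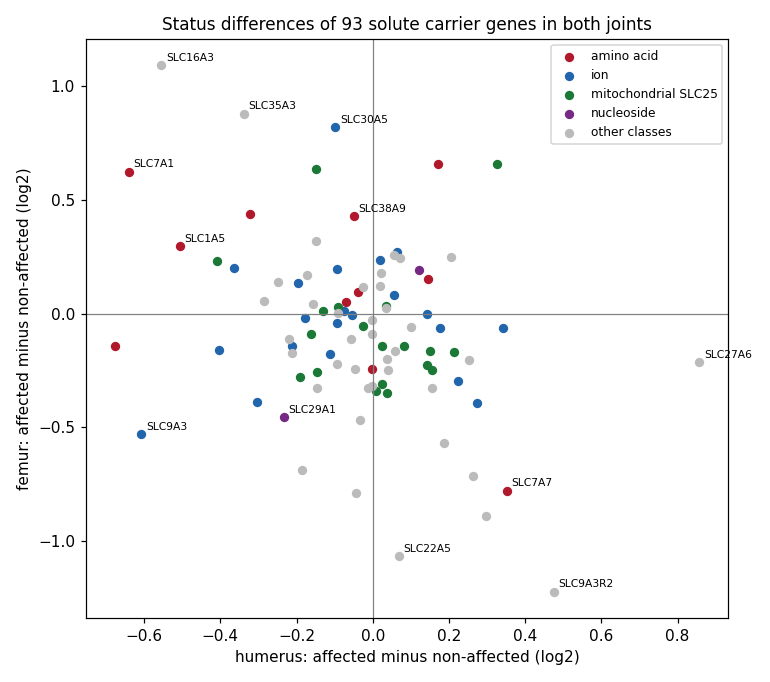
Status differences (affected minus non-affected, log2) of 93 solute carrier genes in the femur (vertical axis) and in the humerus (horizontal axis). Each point is a gene, coloured by class. Genes in the upper left, such as SLC7A1 and SLC16A3, read higher in affected femur and lower in affected humerus, and SLC29A1 and SLC9A3 lie in the lower left.

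The comparison of femur with humerus, with status in the model, gave many more calls. Of 93 solute carriers, 47 were called, 20 higher and 27 lower in femur, beside 52% of all genes (15% higher and 37% lower). How many passed the test in each direction depended on how the arrays were scaled, while the sign of the difference reversed for 1 of the 47, SLC25A6. With quantile normalisation 31 were higher and 15 lower in femur (33.3% and 16.1%), beside 24.5% and 25.2% of all genes. With each array centred on its median 34 were higher and 15 lower (36.6% and 16.1%), beside 26.2% and 24.2% of all genes. The median of all probe sets moved to 0.03 and 0.05 in these scalings, against -0.12 as deposited. The calls that did not depend on this choice were 35. Of these, 20 were higher and 15 lower in femur (21.5% and 16.1%), beside 15% and 23.8% of all genes. Within affected and within non-affected samples 13 of the 35 were also called. The same count was not made over all genes, so the 13 cannot be set against the array. The genes described next are among the 35 unless said otherwise, and the hybridisation controls, 1.15 higher on femoral arrays, stand beside all of them.

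SLC22A8, an organic anion transporter best known from the kidney, had the smallest p. It read 9.75, 9.91, 9.96 and 10.22 in affected femur and 10.05, 10.06, 10.07 and 10.13 in non-affected femur, against 8.25, 8.82 and 9.21 (lowest, median, highest) in affected humerus and 8.69, 8.97 and 9.30 in non-affected humerus. All femoral samples lay above all humeral ones (1.15 ± 0.10 SE, adjusted p = 1.32e-07). Samples of the 2 joints did not overlap for 3 of 93 genes (2 above, 1 below), or 3.23%, beside 4.83% of all genes. Without humerus non-affected 5 they did not overlap for 6 genes (4 above, 2 below), or 6.45%, beside 6.82% of all genes, and the 3 added were SLC25A33 and SLC46A3 above and SLC52A2 below. SLC10A1, a bile acid transporter named because it is the second of these, read 5.64 to 5.88 in femur, against 5.23 to 5.60 in humerus (0.35).

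The third was SLC25A5, the ADP/ATP exchanger of the inner mitochondrial membrane, which was lower in femur. It averaged 9.16 ± 0.13 (SD, n = 4, highest 9.30) in affected femur and had 9.15, 9.23, 9.34 and 9.49 in non-affected femur, against 9.56, 10.08 and 10.32 in affected humerus and 9.50, 10.00 and 10.51 in non-affected humerus. The gap between the joints was at the second decimal (-0.81 ± 0.11 SE, adjusted p = 1.2e-05). Of 19 SLC25 genes, 2 were called higher and 10 lower in femur, with a median of -0.23. Over all genes 15% were called higher and 37% lower, with a median of -0.15. In the other scalings the SLC25 median was -0.10 and -0.06. Of the 19, 7 genes (2 higher, 5 lower) kept their call in all 3, beside 15% and 23.8% of all genes.

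Among these 7, SLC25A24 was lower in femur by the widest margin. It ran from 6.87 to 8.27 in affected femur and from 6.84 to 7.60 in non-affected femur, against 7.92 to 8.99 in affected humerus and 8.24 to 9.65 in non-affected humerus, so some affected femoral samples reached the humeral range (-1.32, adjusted p = 5.51e-05). SLC25A39, which imports glutathione into mitochondria, differed by -0.91 and SLC25A21 by -0.73, while SLC25A33 was higher by 0.57. SLC25A6, the second ADP/ATP exchanger named, was called at -0.19 as deposited, but it is not among the 35: it read 0.09 after quantile normalisation (adjusted p = 0.218). SLC25A3 at -0.22 and SLC25A17 at -0.28 lost the call in at least 1 other scaling.

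Amino acid carriers leaned to the femur, with 9 of 11 positive (median 0.14, and 0.24 and 0.31 in the other scalings). Of all genes 35.7% were positive, with a median of -0.15 as deposited. Higher in femur were SLC1A4 by 0.74, SLC1A5 by 0.61, SLC3A2 by 0.38 and SLC36A2, a proton-coupled carrier of small amino acids named because the call held in the 3 scalings, by 0.34. SLC7A7 was lower by 0.64, with -1.19 within affected and -0.06 within non-affected samples, and SLC1A4 had 1.11 within affected and 0.35 within non-affected samples. The test of the joint by status difference, given above, called neither gene.

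Ion carriers had 7 called higher and 4 lower in femur, with a median of 0.03 (0.16 and 0.20 in the other scalings), and the 7 higher and 3 of the lower held in the 3 scalings. The shares over all genes were 15% higher and 37% lower as deposited, and 15% and 23.8% in all 3 scalings. SLC26A11 had 8.09 to 8.78 in affected femur and 8.47 to 9.13 in non-affected femur, against 7.27 to 8.43 in affected humerus and 7.89 to 8.82 in non-affected humerus, so the joints overlapped (0.64, adjusted p = 0.00313). SLC34A2, a phosphate cotransporter, was higher by 0.54, SLC12A4 by 0.45, SLC9A5 by 0.43 and the zinc importer SLC39A5 by 0.41. SLC30A5 was lower by 0.82 and SLC8B1, the sodium-calcium exchanger of mitochondria, by 0.64.

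Nucleotide sugar genes had 0 called higher and 5 lower in femur (median -0.25), beside 15% and 37% of all genes (median -0.15). Only SLC35A3 kept its call in the 3 scalings. It read 4.08 to 6.14 in femur, against 5.25 to 6.74 in humerus (-1.18, adjusted p = 0.00028), with -0.59 within affected and -1.81 within non-affected samples. All non-affected femoral samples lay near the floor of 4 and under the filter value of 5.3. SLC35A3 thus passed the filter on its mean through the higher humeral samples, and its call is not independent of that filter. SLC35A4 at -0.42, SLC35B1 at -0.22 and SLC35B3 at -0.51 lost the call in at least 1 other scaling. The second probe set of SLC35A4 read 0.21 and was not called. Neither nucleoside carrier was called (SLC29A1 0.20, adjusted p = 0.0536, and SLC28A1 -0.23, adjusted p = 0.0889). SLC29A1 was called higher in femur in the other scalings.

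Among the remaining classes, SLC33A1, which brings acetyl-CoA into the endoplasmic reticulum, had 6.01, 6.09, 6.58 and 6.88 in affected femur and 6.18, 6.24, 6.95 and 7.09 in non-affected femur, against 6.84, 7.44 and 7.65 in affected humerus and 7.11, 7.49 and 7.63 in non-affected humerus. Only the highest femoral samples reached the lowest humeral ones (-0.91, adjusted p = 3.26e-05). The 3 tested probe sets of SLC33A1 ran from -0.91 to -0.37, and 2 of them were called. The riboflavin transporter SLC52A2 was lower in femur by 0.58, with -0.50 within affected and -0.67 within non-affected samples, and was called in both. SLC9A3R2 was lower by 1.22, with -2.05 within affected and -0.35 within non-affected samples, where the call was lost (adjusted p = 0.591). SLC27A6 was lower by 1.13, with -1.65 within affected and -0.57 within non-affected samples (adjusted p = 0.200 there). SLC46A2 was lower by 0.50, with -0.73 within affected and -0.27 within non-affected samples (adjusted p = 0.189 there). Higher in femur were SLC46A3 by 0.52, SLC45A3 by 0.66, the sodium-dependent sugar transporter SLC5A10 by 0.52 and SLC37A4, the glucose-6-phosphate translocase of the endoplasmic reticulum, by 0.31.

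**Figure D4:**
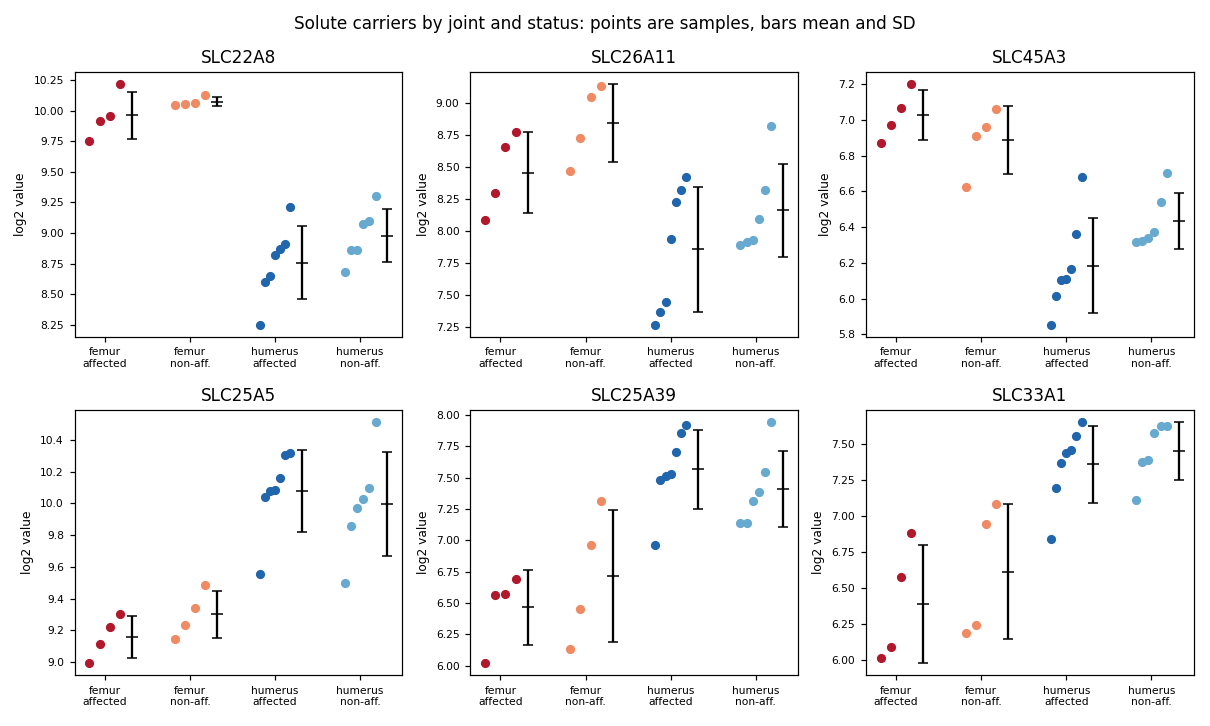
Log2 values of 6 solute carriers in 21 samples by joint and status. Each point is a sample, sorted by value within its group, and the bars give the mean and SD. SLC22A8 lies at 9.75 or higher in all femoral samples and at most at 9.30 in humeral ones, and SLC25A5 lies at most at 9.49 in femoral samples and at least at 9.50 in humeral ones.

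**Figure D5:**
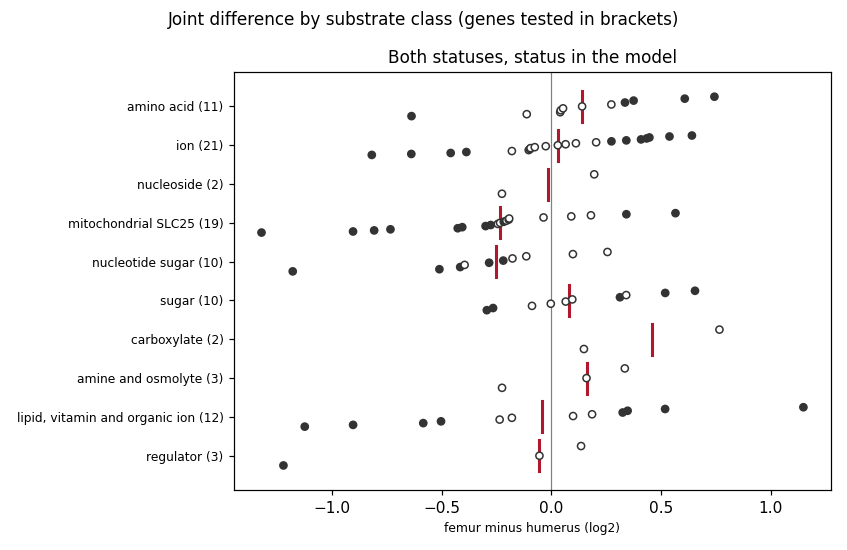
Differences of 93 solute carrier genes between femur and humerus in log2 units by substrate class. Each point is a gene, filled where limma's adjusted p was under 0.05, and the red bar is the class median. SLC25 and nucleotide sugar genes have medians of -0.23 and -0.25, and amino acid carriers have 0.14. The median over all genes is -0.15.

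Markers of other tissues moved with the joint. Lower in femur were 6 of 7 macrophage genes by call (median -1.97), 6 of 6 neutrophil genes (-2.61), 5 of 6 endothelial genes (-2.30) and 4 of 6 bone genes (-2.17), and 5 of 6 skeletal muscle genes were higher (1.27). In the endothelial and bone lists 1 gene each was called higher, by 0.48 and 0.23. Fibrous tissue genes were lower in 3 of 3 cases (-1.80). Other lists were mixed, with 2 higher and 2 lower of 4 adipocyte genes, 1 and 1 of 5 erythroid genes, and 2 and 2 of 7 chondrocyte genes. Over all genes 37% were called lower and 15% higher. Each neutrophil gene had at least 1 sample at the floor, and LTF and the endothelial gene VWF had 5 each, so the size of these differences is limited by the floor. The mean level of the 7 bone genes on the array ran from 6.15 to 8.56 in femur, against 6.87 to 10.13 in humerus, with IBSP at the floor in 3 samples. Macrophage means ran from 4.62 to 8.22 in femur, against 5.63 to 9.71 in humerus. The lowest humeral value of both lists is that of humerus non-affected 5, and without it the medians were -2.27 for macrophage and -2.29 for bone genes. Their part in the joint differences of the carriers was not tested.

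Genes that work beside the carriers gave few calls outside the joint comparison. Limma called none of the genes of these lists in the femoral, humeral, pooled or joint by status comparisons. Of 12 genes of the amino acid response, which raises amino acid carriers and synthetases when amino acids run short, 10 read higher in affected femur (median 0.20) and 10 read lower in affected humerus (-0.18), with 1 and 3 at an unadjusted p under 0.05. Of 10 carbonic anhydrase and proton ATPase genes, 8 read lower in affected femur (-0.27) and 7 higher in affected humerus (0.21). Between the joints, 1 of these 10 was called higher and 6 lower in femur, beside 15% and 37% of all genes. CA9, a carbonic anhydrase of the cell surface, differed by 0.94 and the proton pump subunits ATP6V0D2 and ATP6V1A by -1.76 and -0.96. ATP6V0D2 also stands on the list of osteoclast markers, of which 1 of 5 was called higher and 4 lower in femur (median -0.88), with mean levels of 6.18 to 7.66 in femur, against 6.85 to 9.78 in humerus. In the affected humerus 4 of these 5 read higher (median 0.61) and in the affected femur 2 of 5 (median -0.26). The part of osteoclasts in these values was not tested.

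Among 8 carrier partners and volume kinases, 1 gene was called higher and 3 lower in femur, beside 15% and 37% of all genes. LRRC8A, the essential subunit of the volume-regulated anion channel, was higher by 0.98. The lower ones included TMEM27, a partner of amino acid carriers, by 0.66 and the kinase OXSR1 by 0.59. Of 5 sodium-potassium ATPase and FXYD genes, FXYD5 was higher by 0.84, FXYD3 by 0.31 and FXYD6 lower by 0.39. Of 4 nucleoside enzymes, PNP, which splits inosine and guanosine, was lower in femur by 1.21 and ADK, the kinase that clears adenosine, by 0.87. Of 5 genes of metal storage and uptake, transferrin (TF) was lower by 0.82 and the ferritin chains FTL and FTH1 by 0.36 and 0.33, and of 4 genes of sulfate activation, PAPSS2, which makes PAPS, was lower by 0.72. The same shares of all genes stand beside these lists. Called were 2 of 5 ATPase and FXYD genes higher and 1 lower. Lower were 2 of 4 nucleoside enzymes, 3 of 5 metal genes and 1 of 4 sulfate genes, with 0 called higher.

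Probe sets of 1 gene did not always read alike. Of 28 genes with several tested probe sets, 11 had both signs in the femoral and in the humeral status comparison and 10 in the joint comparison. Between the joints, 62 of 128 probe sets were called (48.4%, 24 higher and 38 lower in femur), beside 51.8% of all probe sets (17.6% higher and 34.2% lower). For SLC27A6, SLC31A1 and SLC45A3 probe sets of the same gene were called in opposite directions, at -1.13 and 0.43, at -0.39 and 0.30, and at 0.66 and -0.50. The gene values of SLC27A6 and SLC45A3 given above rest on the brightest probe set. SLC38A9 was not called on its brightest probe set (0.05) but was lower in femur on the other (-0.63). SLC37A4 and SLC26A11 were called on the brightest probe set only, with the other at -0.03 and 0.13. Of the 28 genes, 7 were called between the joints on all their tested probe sets and 13 on some of them.

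Replicate spread was like that of the array. The pooled within-group SD of the 93 genes had a median of 0.252 and ran from 0.109 to 0.795, beside a median of 0.260 over all genes. The 23 genes too dim for a test had 26 probe sets with means between 4.21 and 5.29, and the brightest sample among them read 6.14. They include the glutamate transporters SLC1A2 and SLC1A3, the ascorbate transporters SLC23A1 and SLC23A2, the iodide transporter SLC5A5 and the bicarbonate cotransporter SLC4A4, named here after their values were seen.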

How the data were processed

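Values are log2 per probe set and array as deposited by the authors. The image analysis used GCOS 1.1.1, per the submitters' processing notes, and how the arrays were normalised is not stated in these sources. Values were used as deposited. Arrays of 1 group that differed by an SD under 0.25 were averaged (humerus affected 5 and 6, SD 0.108; femur non-affected 1 and 2, SD 0.214; next pair 0.341). Control probe sets and those with a mean under the 30th percentile (5.3) were left out. limma 3.58.1 (lmFit, eBayes) in R 4.3.3 fitted the 4 group means, or site and status, over 16799 probe sets, and p-values were adjusted by Benjamini and Hochberg over all of them; a call is an adjusted p under 0.05. The steps were tested on simulated data. The precision is limited by the number of arrays.

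Gene names come from the platform annotation, and 115 of 116 gene IDs matched RefSeq under the same symbol. Named genes are, in each comparison, up to 12 called genes per direction by size, filled to 5 by the smallest p, the 3 brightest and the smallest p of each class, and the members of classes under 3 genes. Other names were chosen after their values were seen. The members and lists were chosen with earlier results of these data known. Alternatives covered filter, scaling, floor, variance model, array weights, close pairs, samples in the fit, probe sets per gene and each array left out.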

Additional observations from a re-analysis of the deposited data

Results flagged for a closer look

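In 9 of 220 combinations of a named gene and a group, or 4.09%, 1 sample stood far from the others of its group by Dixon's criterion, which flags about 1 in 20 groups by chance. In the femur, SLC25A21 read 7.02 in the averaged non-affected pair 1 and 2, with the next sample at 5.85. SLC9A3R2 read 8.73 in femur non-affected 4, with the next at 7.28, and SLC35F5, an SLC35 family member, read 8.99 in femur affected 3, with the next at 8.49. In affected humerus, SLC35F5 read 7.76 and SLC39A1 10.66 in sample 1, SLC12A4 read 7.14 in sample 4 and SLC25A5 read 9.56 in sample 7. In non-affected humerus, SLC35B2 read 9.77 in sample 1 and SLC25A33 read 9.03 in sample 5, with the next samples at 9.10 and 7.76.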

How the results depend on the processing

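The count of solute carriers called in the femur was 1, and it was 0 with the filter at the 50th percentile, where SLC22A5 was too dim to be tested, 0 with the femoral arrays alone, and 5 with 23 arrays as separate samples (SLC22A5, SLC29A1, SLC2A4RG, SLC38A9 and SLC7A7). Leaving out 1 array gave 0 to 3, the lowest when affected femoral array 2 or 3 or non-affected femoral array 4 was dropped, 3 when affected femoral array 1 was dropped, and 2 when affected femoral array 4 or non-affected femoral array 5 was dropped. The count for the joint by status difference was 0, and 2 with 23 arrays (SLC22A5 and SLC7A7). Leaving out 1 array gave 0 to 1 there (SLC6A4 without femur affected 1, SLC22A5 without humerus non-affected 3). The femur to humerus count of 47, beside 52% of all genes, was 23 within non-affected samples (11 higher, 12 lower). With 1 array left out it was 43 to 49. The shares of all genes in these alternatives are not given here, so these counts do not set solute carriers apart from the array. The humeral and pooled counts were 0 under each alternative run. SLC25A6 between the joints reversed, to 0.093, after quantile normalisation. No paired analysis was possible because the labels do not say which animals are sibs and give no number shared between groups. Apart from the smaller number of samples or probe sets in an alternative, the cause was not tested. The femur has 4 samples a group, so small differences are not detectable.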
